A study of Mus musculus with 2 samples.

Results

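The genes described here are the solute carriers of 6 families in mouse brain nuclei: the facilitative sugar carriers (Slc2), the sodium-coupled carriers (Slc5), the monocarboxylate carriers (Slc16), the organic ion carriers (Slc22), the zinc exporters (Slc30) and the zinc importers (Slc39). They were taken by symbol alone, which gave 88 of the 30905 genes in the matrix, and the 72 with at least 20 unique molecular identifiers (UMIs, tags that count RNA molecules) were measured. The measured carriers were 12 of 12 Slc2, 8 of 13 Slc5, 14 of 14 Slc16, 18 of 25 Slc22, 8 of 10 Slc30 and 12 of 14 Slc39 genes. The other 16 had fewer UMIs and carry no result: Slc5a1, Slc5a3, Slc5a4a, Slc5a8, Slc5a9, Slc22a13, Slc22a16, Slc22a20, Slc22a26, Slc22a27, Slc22a28, Slc22a29, Slc30a2, Slc30a8, Slc39a4 and Slc39a5. Slc5a3, the myo-inositol carrier, had 0 UMIs in the matrix and overlaps Mrps6 on the same strand, so its reads and those of Mrps6 cannot be told apart.

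The study profiled single nuclei of the blood-brain barrier and its surroundings in natural ageing. Its 2 samples are cerebral cortex, frozen, from C57BL/6 mice (wild-type) at 18 months and at 2 months. Each is a pool of 3 mice, with no further allele or agent named. The series text gives these ages as 18 to 22 months and 2 to 3 months. Both samples share 1 matrix, whose barcodes carry 1 of 2 suffixes, here called library 1 and library 2, and the age behind each suffix is not given in the sources used here.

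Carriers of these families move small polar molecules that do not cross membranes by themselves. At the blood-brain barrier, glucose enters through GLUT1 (Slc2a1) and lactate and ketone bodies through MCT1 (Slc16a1), while organic anion carriers such as OAT3 (Slc22a8) clear metabolites and drugs from brain fluid. Zinc is imported into the cytosol by ZIP proteins (Slc39) and removed from it by ZnT proteins (Slc30), and in many neurons it is also stored in synaptic vesicles.

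The 3 carriers below are shown because each had its highest level in endothelial nuclei in both libraries and moves glucose, lactate or zinc. The letters marked are cores of response elements, to hypoxia for the glucose and lactate carriers and to metal load for the zinc exporter. Whether any of these genes responds through such a core was not tested. The stretches are RefSeq promoters of build GRCm38.p6, all on the + strand, and end before the first GENCODE vM21 transcript start. For Slc2a1 (chr4:119108495-119108710) and Slc16a1 (chr3:104638414-104638663) the capitals mark the hypoxia response core, ACGTG or GCGTG on either strand. For Slc30a1 (chr1:191906531-191906766) they mark the metal response core, TGCACNC or TGCGCNC on either strand.
Slc2a1: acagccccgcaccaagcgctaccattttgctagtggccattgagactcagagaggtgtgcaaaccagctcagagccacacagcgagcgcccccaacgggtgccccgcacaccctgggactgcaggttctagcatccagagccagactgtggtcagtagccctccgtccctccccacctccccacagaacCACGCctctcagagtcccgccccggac
Slc16a1: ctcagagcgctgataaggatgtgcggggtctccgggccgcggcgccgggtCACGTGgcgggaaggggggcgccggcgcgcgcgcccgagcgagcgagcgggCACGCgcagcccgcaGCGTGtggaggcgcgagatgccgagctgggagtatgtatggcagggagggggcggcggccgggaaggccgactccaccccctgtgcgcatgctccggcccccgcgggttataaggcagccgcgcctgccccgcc
Slc30a1: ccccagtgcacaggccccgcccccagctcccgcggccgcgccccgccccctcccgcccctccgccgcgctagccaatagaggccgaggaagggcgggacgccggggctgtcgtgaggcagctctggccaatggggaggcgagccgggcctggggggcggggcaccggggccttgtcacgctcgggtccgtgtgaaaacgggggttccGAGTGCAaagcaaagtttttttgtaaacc

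In the 250 bases before the RefSeq start, Slc2a1 had 2 hypoxia cores, 61 and 36 bases before it, of which the first lies in the printed stretch. Slc16a1 had 4, at 200, 199, 149 and 134 bases, and the first pair overlap in one palindrome. Of 32851 RefSeq promoter windows of this length, 38.6% held at least 1 such core and 16.7% at least 2. Slc30a1 had its metal core 43 bases before the start, and 21.4% of windows held at least 1. Each of the 3 windows held the other core too: Slc2a1 and Slc16a1 had 1 metal core each, at 196 and 52 bases, and Slc30a1 had 1 hypoxia core at 75 bases. It also had 5 GC boxes (GGGCGG on either strand), as did at least that many in 1.93% of windows. The stretches of Slc2a1 and Slc16a1 were 63.9% and 76.4% G or C. A match says only that these letters are present. Of the 72 measured carriers, 58 had a promoter entry.

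The matrix held 118655443 UMIs over 8914 barcodes of library 1 and 8587 of library 2, and 8286 and 7954 nuclei were kept, with medians of 6051.5 and 6486.5 UMIs. They formed 30 clusters, and comparisons used the 25 units that had 50 nuclei or more in both libraries: 7 non-neuronal classes, 17 neuron clusters and 1 unnamed cluster (cluster 11). Class names stand for nuclei like that class by its markers. Clusters with hippocampal markers (dentate granule, CA1) and striatal markers were present although the tissue label is cerebral cortex. The libraries shared 19 barcode sequences. A list of 10 neuronal genes made up 1.42% to 3.26% of UMIs in the non-neuronal classes and 4.12% to 7.09% in the neuron clusters, and the part of foreign RNA in low levels of a carrier was not tested. The UMI sums behind a level ran from 156579 (pericytes with smooth muscle, library 1) upward.

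Levels are UMIs summed over the nuclei of a unit and library and scaled to the sum of that unit (CPM), with exact 95% Poisson intervals that cover counting error only. Each age is 1 pool, so there are no replicates, no test was run, and nuclei were not used as replicates. A carrier was counted for a class by size: highest there, at least 2-fold over the next unit, or at least 4-fold over the mean of the other units, in both libraries.

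By the 2-fold and 4-fold rules, endothelial nuclei and fibroblasts were the classes where carriers stood out most often. Neuron clusters, 17 of the 25 units, were highest for 29.2% of carriers in both libraries, beside 24.7% of all genes. Of the 72 carriers, 7 had their highest level in endothelial nuclei in both libraries (background 5.4% of 18945 genes), 5 were at least 2-fold over the next unit (background 1.7%) and 6 were at least 4-fold over the mean of the other units (background 3.21%). Fibroblast nuclei were highest for 9 (background 5.07%), with 4 at 2-fold (1.2%) and 7 at 4-fold (2.63%). After thinning to 1500 UMIs, 2 carriers passed the 2-fold rule in fibroblasts. The counts of 9, 4 and 7 include Slc22a2, which was measured only because of its fibroblast UMIs. Pericytes and smooth muscle formed 1 class and were highest for 2 (3.35%), with 0 at 2-fold (0.644%) and 2 at 4-fold (1.45%). Astrocytes were highest for 2 (3.31%), with 1 at 2-fold (1.02%) and 1 at 4-fold (1.96%). Oligodendrocytes were highest for 1 (3.02%), which also passed 2-fold (0.913%) and 4-fold (1.48%). Their precursors were highest for 2 (1.52%), with 0 at 2-fold (0.333%) and 1 at 4-fold (0.871%). Microglia with macrophages were highest for 3 (4.42%), with 1 at 2-fold (1.7%) and 3 at 4-fold (2.55%). Neuron clusters were highest for 21 (24.7%), with 0 at 2-fold (1.13%) and 1 at 4-fold (3.79%). Unnamed cluster 11 had 0 by each rule (0.523%, 0.0581% and 0.269%). Over all classes, 47 carriers kept the same class of highest level in both libraries (51.3% of genes), 12 were 2-fold over the next unit (8.7%) and 22 were 4-fold over the mean (18.2%).

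The carriers as a whole were not shifted far from all genes in either class. The median log2 ratio of the 72 carriers in endothelial nuclei to the mean of the other units, with 1 CPM added, was -0.23 in library 1 and 0.07 in library 2, beside -0.09 and 0.08 over all genes. In fibroblasts it was 0.14 and 0.36, beside 0.10 and 0.19. The summed level of the carriers was 4189 and 4155 CPM in endothelial nuclei and 1378 to 2872 CPM in the other units.

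**Figure D1:**
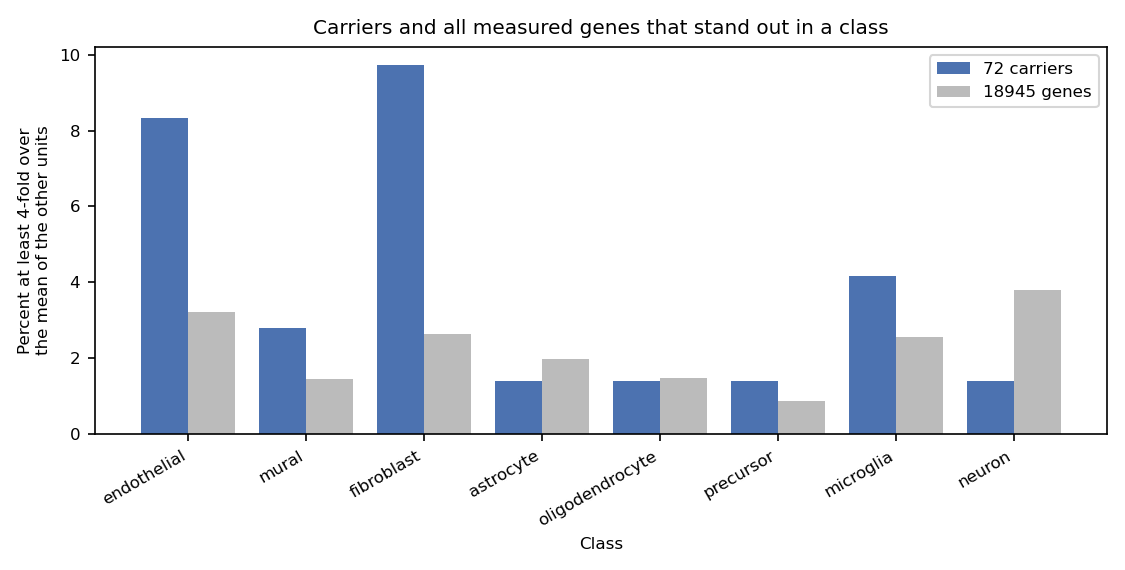
Percent of the 72 measured carriers and of the 18945 genes with at least 20 UMIs that were at least 4-fold over the mean of the other units in both libraries (vertical axis, percent), for each class (horizontal axis); bars start at 0. Endothelial nuclei hold 6 carriers and fibroblasts 7, where 3.21% and 2.63% of all genes meet the rule. Of the fibroblast carriers, Slc22a2 reached 20 UMIs only through that class.

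**Figure D2:**
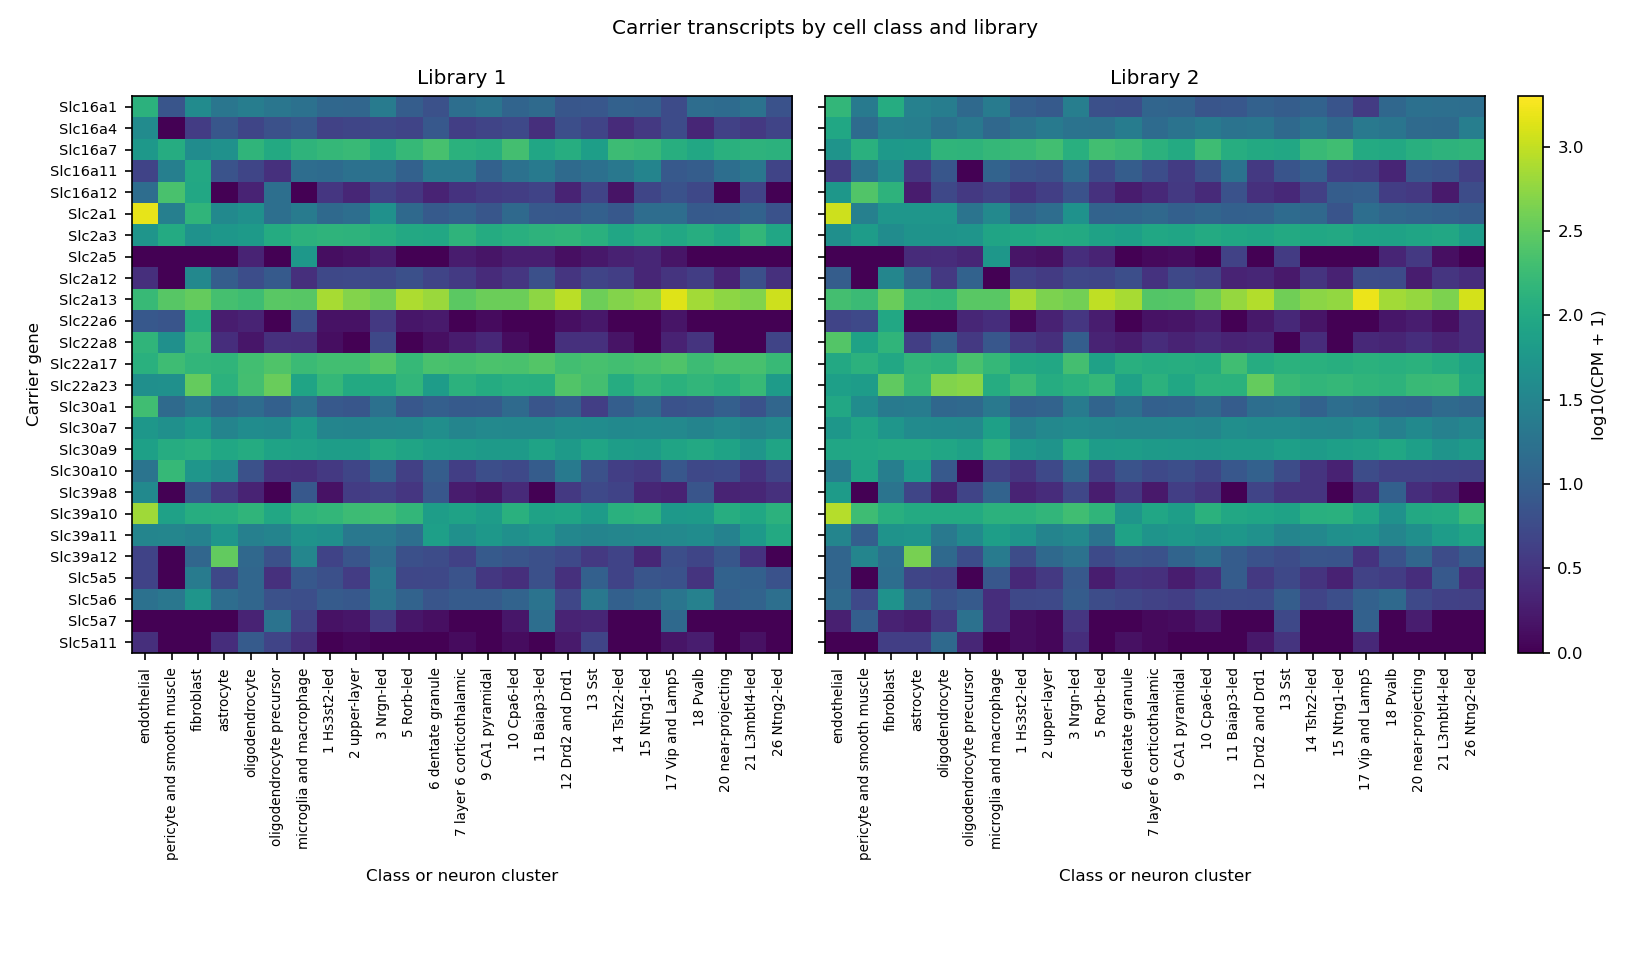
Level of 26 carriers, as log10 of CPM + 1, in the 25 compared units, with 1 panel for each library. Slc2a1 and Slc39a10 are highest in endothelial nuclei, Slc39a12 in astrocytes and Slc2a13 in neuron cluster 17, in both panels.

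Glucose carriers divided by cell type. Slc2a1 (chr4:119108711-119137983, + strand, mm10) encodes GLUT1, the glucose carrier of the barrier. Its level in endothelial nuclei was 1508 CPM in library 1 (844 UMIs in 120 of 156 nuclei, 95% interval 1408 to 1613) and 1128 CPM in library 2 (1222 UMIs in 248 of 295 nuclei, 1065 to 1193). The next unit was fibroblasts at 145 CPM in library 1 and astrocytes at 53.9 CPM in library 2, which set Slc2a1 10.4-fold and 20.9-fold apart. Neuron clusters lay between 5.71 and 45.7 CPM in library 1 and between 6.28 and 46.5 in library 2. Endothelial intervals overlapped with those of no other unit. The fibroblast level of library 1 leaned on few nuclei, since 28 of its 103 UMIs came from 1 nucleus, and fibroblasts of library 2 held 53.2 CPM.

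Slc2a3, which encodes GLUT3, the main neuronal glucose carrier, was spread over all neurons. It lay between 87.5 and 149.9 CPM over the neuron clusters of library 1 and between 65.2 and 103 over those of library 2. Endothelial nuclei held 51.8 and 43.4 CPM, fibroblasts 46.5 and 39.6, and astrocytes 54.7 and 48.4. Microglia reached 130.2 and 83.2 CPM and so lay within the neuronal range.

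Microglia were also set apart by a fructose carrier. Slc2a5, which encodes GLUT5, had 32 UMIs in microglia with macrophages in each library, or 56.3 CPM (38.5 to 79.5) and 55.5 CPM (37.9 to 78.3). The next units held 1.28 and 3.45 CPM, so that microglia were 43.8-fold and 16.1-fold higher. Endothelial nuclei, fibroblasts and pericytes with smooth muscle had 0 UMIs in both libraries. In endothelial nuclei 3 UMIs would make 5.36 and 2.77 CPM, and in pericytes with smooth muscle 19.2 and 13.1 CPM. Low levels there could therefore be missed.

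Slc2a12, which encodes the glucose carrier GLUT12, was highest in fibroblasts at 33.8 CPM (21.7 to 50.3) and 31.3 CPM (21.1 to 44.7), with astrocytes next at 8.42 and 10.9 CPM. The intervals of fibroblasts and astrocytes did not overlap in either library, but thinning to 1500 UMIs took the fibroblast level of library 1 to 16.9 CPM. Choroid plexus-like nuclei, too few to compare, held more Slc2a12 than fibroblasts, at levels given at the end. Slc2a8, a glucose carrier of intracellular membranes, reached at most 26.6 CPM (cluster 21) and 17.1 CPM (cluster 17). Slc2a9, a urate carrier, reached at most 17.6 CPM (microglia) and 21.9 CPM (CA1-like cluster 9). Slc2a6 reached at most 12.4 CPM (cluster 18) and 14.3 CPM (cluster 3). Slc2a2, Slc2a4, Slc2a7 and Slc2a10 stayed under 10 CPM in every compared unit. For Slc2a2, Slc2a4, Slc2a7, Slc2a9 and Slc2a10 the class of highest level differed between libraries.

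Slc2a13 (chr15:91267696-91573261, - strand), which encodes the proton-coupled myo-inositol carrier HMIT, had its highest levels in neurons. The cluster with Vip and Lamp5 interneuron markers (cluster 17) held 1382 CPM (1330 to 1436) in library 1 and 1607 CPM (1542 to 1673) in library 2. Cluster 26, excitatory neurons led by Ntng2, Col24a1 and Col11a1, came next with 1115 CPM (1027 to 1209) and 1238 CPM (1151 to 1329). These intervals did not overlap in either library, although the ratio of the 2 clusters was under 2-fold. The other neuron clusters went down to 292 and 262 CPM, while non-neuronal classes lay between 163 and 347 CPM. The inositol genes listed beside it, 5 of 6 of them measured, were highest in several units: Isyna1, which makes inositol phosphate from glucose phosphate, was highest in fibroblasts (119.7 and 25.03 CPM), Inpp1 in endothelial nuclei (75.0 and 75.7 CPM) and Cdipt in cluster 3 (68.1 and 56.8 CPM).

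Of 18 listed genes of glycolysis and lactate, all measured, 0 were highest in endothelial nuclei in both libraries (5.4% of all genes), 10 in neuron clusters (24.7%), 2 in astrocytes (3.31%) and 1 in microglia (4.42%). The neuron cluster was cluster 3, led by Nrgn, Nefl and Tmsb4x, for Aldoa (433 and 470.4 CPM) and Pkm (358 and 313 CPM), enzymes of glycolysis. Its median of 2117 and 2400 UMIs per nucleus lay below those of the other neuron clusters. Among neuron clusters it also held the highest summed markers of endothelial nuclei (150.3 and 350.5 CPM) and of oligodendrocytes (1099 and 1538 CPM). The same held for markers of pericytes with smooth muscle, fibroblasts and microglia, but not for those of astrocytes or precursors. The part of that depth or of this RNA in the levels of cluster 3, here and below, was not tested. Eno2, the neuronal enolase, held 256 and 180.1 CPM there. Hk2, a hexokinase, was in microglia at 73.9 and 52.0 CPM, against at most 6.39 and 6.26 CPM in the next unit.

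Sodium-coupled carriers of the Slc5 family were sparse. Slc5a6, which encodes the multivitamin carrier for biotin and pantothenate, was highest in fibroblasts at 52.1 CPM (36.7 to 71.8) and 46.9 CPM (34.2 to 62.8), with the next unit at 27.3 CPM (cluster 18) and 12.9 CPM (endothelial nuclei). Slc5a5, the iodide carrier, was also highest there at 22.5 and 14.6 CPM, but its intervals overlapped with those of the next units, cluster 3 at 19.9 and endothelial nuclei at 11.1 CPM. Slc5a7, the high-affinity choline carrier, was highest in oligodendrocyte precursors at 16.8 CPM (9 UMIs) and 16.2 CPM (13 UMIs), with intervals that overlapped with those of the next units, and thinning to 1500 UMIs took the first to 10.0 CPM. Slc5a11, a second myo-inositol carrier, was highest in oligodendrocytes at 7.93 CPM (4.33 to 13.3) and 12.4 CPM (6.96 to 20.5), from 14 and 15 UMIs, with the next unit at 3.75 and 3.13 CPM. Slc5a10 was highest in microglia on 5 UMIs and 1 UMI only. Slc5a2, Slc5a4b and Slc5a12 stayed under 10 CPM in every unit.

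Chat, the acetylcholine-forming enzyme whose substrate Slc5a7 brings in, was highest in unnamed cluster 11 (17.2 CPM) in library 1 and cluster 17 (10.96 CPM) in library 2. Of the 9 listed choline genes 7 were measured, and 1 of them, Bche, was highest in fibroblasts in both libraries (5.07% of all genes), at 87.3 and 137 CPM. Slc44a1, a choline carrier, was highest in oligodendrocytes in library 1 (485 CPM) and in their precursors in library 2 (492 CPM).

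Of 14 monocarboxylate carriers, 3 had their highest level in endothelial nuclei in both libraries (5.4% of all genes), Slc16a1 and Slc16a4 among them. Slc16a1 (chr3:104638668-104658462, + strand), the lactate and ketone carrier MCT1, held 130.4 CPM there in library 1 (102 to 164) and 154 CPM in library 2 (132 to 179). Fibroblasts came next with 38.0 and 110.5 CPM, a gap of 3.43-fold in library 1 and 1.39-fold in library 2, so Slc16a1 did not pass the 2-fold rule in library 2. Neuron clusters lay at 4.72 to 22.4 CPM and 2.74 to 24.7 CPM, and astrocytes at 18.5 and 27.3 CPM.

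In endothelial nuclei Slc16a4, which encodes MCT5, was also highest, with 37.5 CPM (23.2 to 57.3) in library 1 and 90.4 CPM (73.4 to 110.2) in library 2. The next units held 7.18 CPM (dentate-like cluster 6) and 26.1 CPM (fibroblasts). Every compared unit was lower in library 1 than in library 2 for this gene, which is taken up below.

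Among the compared units Slc16a9, which encodes MCT9, was highest in endothelial nuclei and fibroblasts in both libraries, but with the order turned. Endothelial nuclei held 82.2 CPM (60.2 to 110) and fibroblasts 50.7 CPM in library 1, against 45.2 CPM in endothelial nuclei and 139 CPM (116 to 164) in fibroblasts of library 2. Neuron clusters held at most 2.49 and 1.72 CPM. Slc16a12, the creatine carrier MCT12, had its peak in pericytes with smooth muscle, where library 1 held 224 CPM (156 to 311) and library 2 held 252 CPM (192 to 326). Fibroblasts were next with 94.3 and 137 CPM. The intervals of these classes did not overlap. Fibroblast markers summed to 1558 and 1092 CPM in that class, beside 6592 and 8484 CPM in fibroblasts, and their part in the level was not tested. Slc16a11, which encodes MCT11, was highest in fibroblasts at 97.1 CPM (75.6 to 123) and 38.6 CPM (27.2 to 53.2). Slc16a13 was highest there too, on 4 and 10 UMIs.

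Slc16a6, which encodes MCT7, was highest in microglia with macrophages at 146 CPM (116 to 181) and 123 CPM (96.1 to 155), and fibroblasts were next at 98.6 and 81.3 CPM, with overlapping intervals. Both stood above neuron clusters, which held at most 43.5 and 22.8 CPM. Slc16a7, the high-affinity lactate carrier MCT2 of neurons, ran the other way. It lay between 70.0 and 218 CPM over the neuron clusters of library 1 and between 92.8 and 199 CPM over those of library 2, with endothelial nuclei at 57.2 and 50.8, fibroblasts at 39.4 and 59.4 and astrocytes at 45.5 and 62.5 CPM. Oligodendrocytes (143 and 145 CPM) and microglia (137 and 156 CPM) lay within the neuronal range.

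Slc16a10, the aromatic amino acid carrier TAT1, marked a few neuron clusters. Layer 6 corticothalamic-like cluster 7 held 130.5 and 103 CPM, cluster 26 held 126 and 121 CPM and dentate-like cluster 6 held 117 and 99.3 CPM, while no other unit passed 59.8 and 65.9 CPM, the levels of microglia. Slc16a14, which encodes MCT14, was highest in the Sst-like cluster 13 at 34.4 and 18.8 CPM. Slc16a3, Slc16a5 and Slc16a8 stayed under 10 CPM in all compared units.

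Slc16a10 also carries thyroid hormone, and the listed thyroid hormone genes were split among classes. Slco1c1, the thyroxine carrier, held 904 and 1177 CPM in endothelial nuclei with astrocytes next at 420.3 and 517 CPM. Slc7a5, an amino acid carrier that also takes thyroid hormone, held 209 and 244.5 CPM in endothelial nuclei and at most 14.1 and 14.6 CPM elsewhere. Dio2, the enzyme that activates the hormone, held 97.7 and 123 CPM in astrocytes and at most 16.8 and 17.4 elsewhere. Thrb, a hormone receptor, was highest in the Pvalb-like cluster 18 (1154 and 1209 CPM). Of the 10 listed thyroid genes, all measured, 2 were highest in endothelial nuclei (5.4% of all genes), 1 in astrocytes (3.31%), 1 in microglia (4.42%) and 3 in neurons (24.7%) in both libraries.

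Some MCT proteins, MCT1 among them, need a chaperone to reach the cell surface. Bsg, the chaperone of MCT1, held 2353 CPM (2228 to 2483) and 1242 CPM in endothelial nuclei, and the next unit, fibroblasts, held 252 and 249 CPM. Emb, a second chaperone, was highest in neuron cluster 15 at 119.5 and 139 CPM, and Nptn, another member of that family, in cluster 3 at 738 and 619 CPM. So 1 of 3 chaperone genes was highest in endothelial nuclei (5.4% of all genes) and 2 in neurons (24.7%). Of 5 ketone body genes, 1 was highest in endothelial nuclei (5.4% of all genes), 1 in astrocytes (3.31%), 1 in oligodendrocytes (3.02%) and 2 in neurons (24.7%) in both libraries. Oxct1, which breaks ketone bodies down, was highest in cluster 18 (336 and 332 CPM). Acat1, an acetoacetyl-CoA enzyme, was highest in clusters 13 and 18 (135.5 and 122 CPM).

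**Figure D3:**
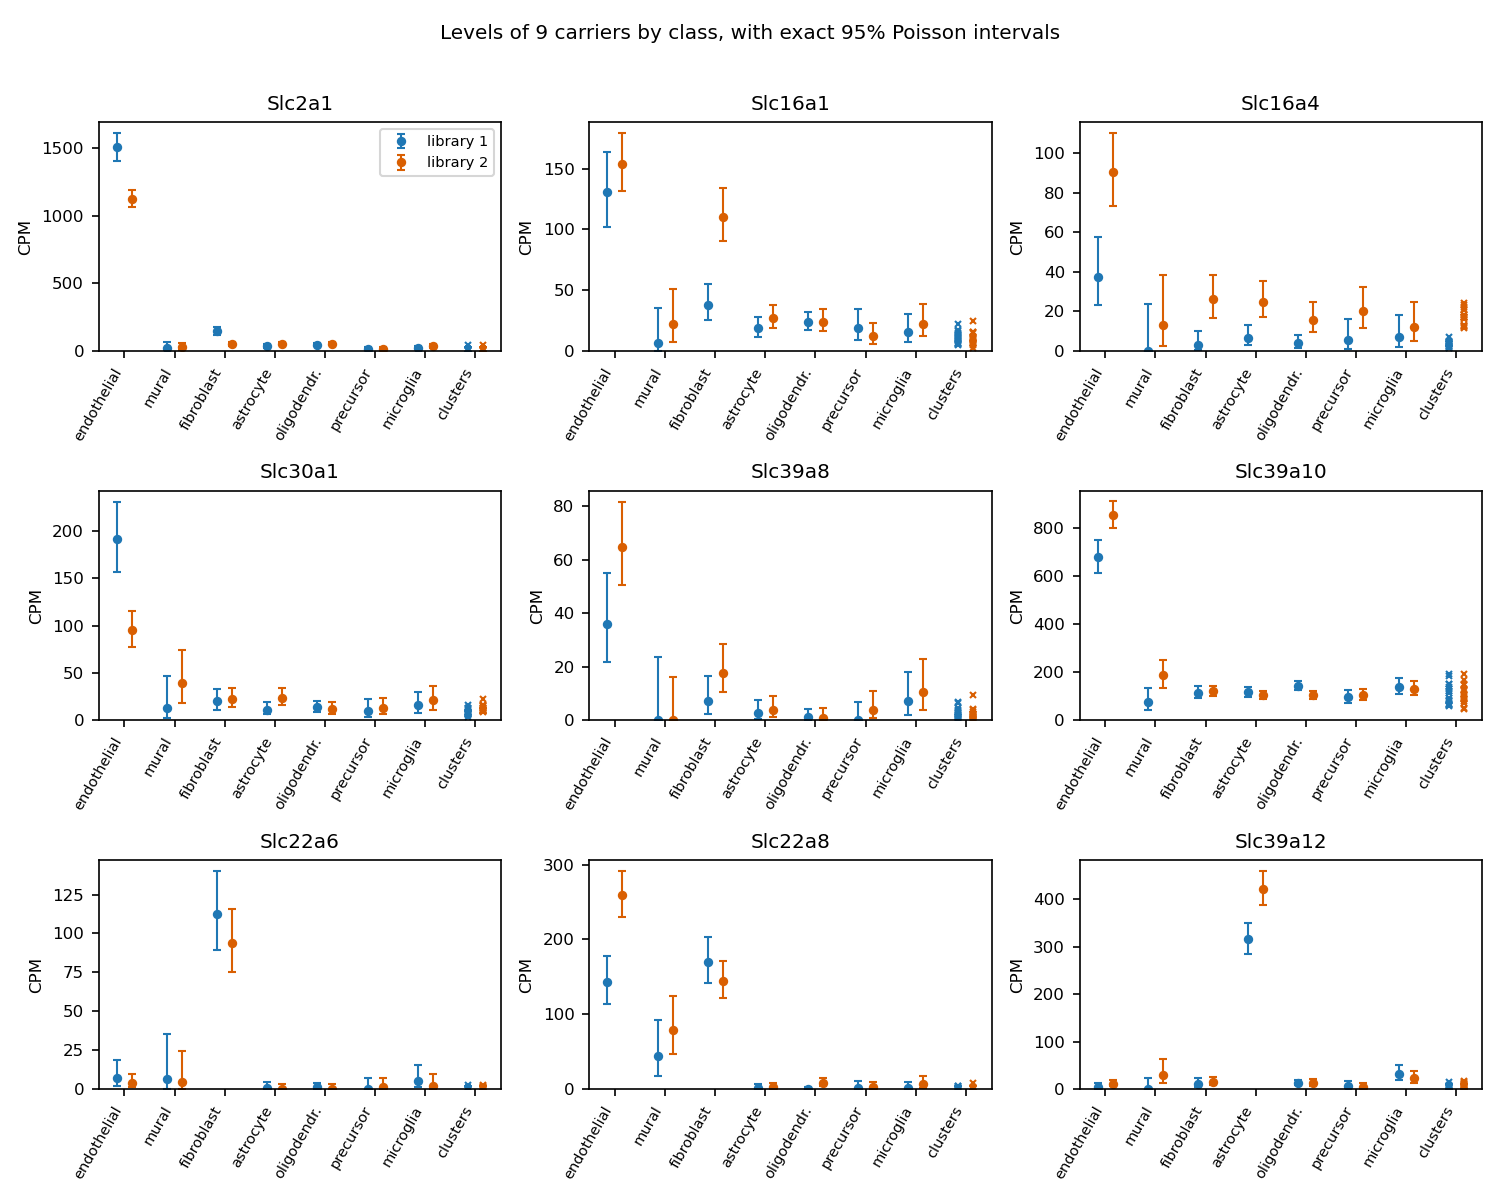
Level in CPM (vertical axis) of 9 carriers in the 7 non-neuronal classes (mural stands for pericytes with smooth muscle), as points with exact 95% Poisson intervals for each library; crosses are neuron clusters and unnamed cluster 11. Slc2a1 reaches 1508 and 1128 CPM in endothelial nuclei, and Slc22a6 reaches 113 and 93.9 CPM in fibroblasts.

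Of 18 organic ion carriers, 4 were highest in fibroblasts (5.07% of all genes) and 5 in neuron clusters (24.7%) in both libraries. Slc22a6, the organic anion carrier OAT1, had in fibroblasts 113 CPM (89.3 to 140.2) in library 1 and 93.9 CPM (75.5 to 115) in library 2 and was 15.8-fold and 21.6-fold over the next unit. Endothelial nuclei held 7.15 and 3.69 CPM. Slc22a8, its relative OAT3, was shared between fibroblasts and endothelial nuclei. Fibroblasts held 170.4 CPM (141 to 204) and 145 CPM (122 to 171), and endothelial nuclei 143 CPM (113 to 178) and 259 CPM (230 to 291), so their intervals overlapped in library 1 and not in library 2. Astrocytes, oligodendrocytes and neuron clusters held 0 to 8.60 CPM. The remaining units, among them pericytes with smooth muscle, precursors and microglia, lay below fibroblasts and endothelial nuclei, at levels not given here. Both genes lie next to each other on chromosome 19, + strand, with 6203 bases between the end of Slc22a8 and the start of Slc22a6.

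Slc22a2, the organic cation carrier OCT2, had 12 UMIs (16.9 CPM, 8.73 to 29.5) and 37 UMIs (38.6 CPM, 27.2 to 53.2) in fibroblasts, with at most 1.90 and 1.15 CPM elsewhere. It had 66 UMIs in the matrix and so was measured only because of its fibroblast UMIs. Slc22a5, the carnitine carrier OCTN2, was highest in fibroblasts at 43.7 CPM (29.7 to 61.9) and 78.2 CPM (61.5 to 98.0), yet pericytes with smooth muscle at 31.9 CPM lay within its interval in library 1. Slc22a18 was highest there on 5 and 14 UMIs. Slc22a21, a mouse carnitine carrier, was highest in endothelial nuclei in library 1 (25.01 CPM) and fibroblasts in library 2 (26.1 CPM). Slc22a4, the ergothioneine carrier OCTN1, was highest in astrocytes at 46.3 CPM (34.9 to 60.3) and 29.7 CPM (21.0 to 40.7), with fibroblasts next at 33.8 and 22.9 CPM and with overlapping intervals.

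Outside the vessel wall, Slc22a3, the cation carrier OCT3, was highest in the striatal-like cluster 12 at 15.8 CPM (11.5 to 21.3) and 17.7 CPM (11.8 to 25.6). Slc22a15 was highest in cluster 26 at 64.7 and 53.8 CPM, with oligodendrocyte precursors (52.3 CPM) and fibroblasts (45.9 CPM) next. Slc22a23 was highest in oligodendrocyte precursors at 346 CPM (298 to 399) and 517 CPM (469 to 570), where fibroblasts held 327 and 307 CPM and oligodendrocytes 208 and 477 CPM. The precursor interval overlapped with fibroblasts in library 1 and with oligodendrocytes in library 2. Endothelial nuclei held 42.9 and 71.98 CPM of it. Slc22a17, a lipocalin-2 receptor of this family, was detected in every unit, between 125 and 264 CPM in library 1 and between 75.6 and 227 CPM in library 2. Slc22a14, at most 49.4 CPM, overlaps Myd88, Oxsr1 and Slc22a13 on its strand and its counts are uncertain. Slc22a7, Slc22a12, Slc22a19, Slc22a22 and Slc22a30 stayed under 10 CPM.

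Of 9 listed genes for carnitine use and monoamine clearance, all measured, 2 were highest in endothelial nuclei in both libraries (5.4% of all genes). Maoa, which breaks down monoamines, was highest in endothelial nuclei at 143 and 158 CPM, against at most 47.9 and 43.5 CPM elsewhere. Cpt1a, the carnitine enzyme that starts fatty acid entry into mitochondria, was highest there at 75.0 and 73.8 CPM. Slc47a1, an organic cation exchanger that often works with Slc22 uptake carriers, held 399.9 and 501 CPM in fibroblasts, but it was a marker used to name that class, so this level is not a finding.

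Among 8 zinc exporters measured, Slc30a1 (chr1:191906767-191913247, + strand), the plasma membrane exporter ZnT1, held 191 CPM (157 to 231) in endothelial nuclei of library 1 and 95.05 CPM (77.6 to 115) in those of library 2. The next units were fibroblasts at 19.7 CPM and pericytes with smooth muscle at 39.2 CPM, and the ratio was 9.70-fold and 2.43-fold. The endothelial interval overlapped with that of no other unit in either library. The level of library 1 was 120.3 CPM with each nucleus weighted equally and 116 CPM after thinning to 1500 UMIs, and 17 of its 107 UMIs came from 1 nucleus.

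Slc30a3, the ZnT3 protein that fills synaptic vesicles with zinc, was highest in neuron cluster 3 at 75.6 CPM (60.8 to 92.8) and 52.8 CPM (42.5 to 64.7) and lowest among neurons in cluster 21 at 7.89 and 7.06 CPM. Excitatory clusters therefore differed from each other by more than counting error. Microglia held 44.0 and 43.3 CPM. Slc30a10, a manganese exporter, had its peak in pericytes with smooth muscle, with 159.7 CPM (103 to 236) in library 1 and 82.7 CPM (49.8 to 129) in library 2, and with fibroblasts at 53.5 CPM and astrocytes at 64.8 CPM next. The intervals of library 2 overlapped.

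The other Slc30 genes, carriers of the secretory pathway and of other membranes, differed less between units. Slc30a7, a Golgi zinc carrier, lay between 29.1 and 61.6 CPM in library 1 and between 26.0 and 82.7 CPM in library 2. Slc30a9 lay between 52.7 and 119.7 CPM and between 49.8 and 123 CPM. Slc30a5 reached 67.9 and 67.3 CPM, Slc30a4 47.3 and 43.6 CPM and Slc30a6 30.4 and 22.9 CPM. For Slc30a5, Slc30a6, Slc30a7 and Slc30a9 the class of highest level differed between libraries.

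Of 12 zinc importers, 2 were highest in endothelial nuclei in both libraries (5.4% of all genes). Slc39a10 (chr1:46807544-46892852, - strand), the plasma membrane importer ZIP10, had 681 CPM (614 to 753) in library 1 and 855 CPM (801 to 912) in library 2 in these nuclei, and the next unit, cluster 3, held 191 and 193 CPM. Gm28151 overlaps it on the same strand, so the counting could assign some reads to either. Slc39a8, the zinc, iron and manganese carrier ZIP8, was the other, at 35.7 CPM (21.8 to 55.2) in library 1 and 64.6 CPM (50.4 to 81.6) in library 2, with fibroblasts next at 7.04 and 17.7 CPM. The intervals of Slc39a8 did not overlap between these classes, and thinning took the endothelial level of library 1 to 23.1 CPM.

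Slc39a12 (chr2:14388316-14494977, + strand), the zinc importer ZIP12, was highest in astrocytes among the compared units. It held 316 CPM (285 to 349) and 422 CPM (388 to 460.0) there, and the next unit held 31.7 CPM (microglia) and 30.5 CPM (pericytes with smooth muscle). Neuron clusters held 0 to 14.9 and 2.05 to 16.6 CPM. Choroid plexus-like and ependymal-like nuclei, too few to compare, also held Slc39a12, at levels given at the end. In library 2 the choroid plexus-like level was above that of astrocytes. Slc39a14, the metal importer ZIP14, reached 52.2 CPM (astrocytes) and 49.0 CPM (fibroblasts). Slc39a11, which encodes ZIP11, was highest in cluster 26 at 98.9 and 83.2 CPM, with dentate-like cluster 6 next at 71.8 and 78.9 CPM, and thinning took cluster 26 to 72.7 and 51.3 CPM. Slc39a6, which encodes ZIP6, was highest in microglia in library 1 (35.2 CPM) and in dentate-like cluster 6 in library 2 (56.0 CPM, 34.8 in library 1). Slc39a1, Slc39a2, Slc39a3, Slc39a7, Slc39a9 and Slc39a13 were at most 59.8 CPM in every unit. Slc39a2 overlaps Mettl17 on its strand.

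Of 6 listed zinc binding and sensing genes, 0 were highest in endothelial nuclei in both libraries (5.4% of all genes), 1 in oligodendrocytes (3.02%) and 3 in neuron clusters (24.7%). Mtf1, the zinc sensing transcription factor, was highest in oligodendrocytes at 61.7 and 65.5 CPM. Mt1, a metallothionein, was highest in astrocytes in library 1 (172 CPM) and cluster 3 in library 2 (113 CPM). Tmem163, a zinc exporter, was highest in cluster 26 at 1102 and 1042 CPM, and Mt3, the neural metallothionein, in cluster 3 at 96.3 and 101 CPM.

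Fibroblast nuclei fell into 2 clusters that held different carriers. Cluster 24 (107 and 109 nuclei) was led by Ranbp3l, Slc7a11 and Ptgds, and cluster 27 (91 and 100 nuclei) by Bnc2, Slc47a1 and Adamtsl3. Carriers were not among the genes used to cluster. Of the 72, 8 were at least 2-fold higher in cluster 24 with intervals apart in both libraries (1.45% of genes), and 3 in cluster 27 (1.33%). The 8 include Slc22a2, which was measured only because of its fibroblast UMIs.

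The anion carriers were in cluster 24. Slc22a8 held 269 CPM (222 to 323) and 229 CPM (189 to 276) there and 17.9 and 57.4 CPM in cluster 27. Slc22a6 held 176 CPM (139 to 221) and 159.8 CPM (126 to 199) against 14.3 and 25.5 CPM. Of the fibroblast UMIs, cluster 24 gave 116 of 121 and 112 of 139 for Slc22a8 and 76 of 80 and 78 of 90 for Slc22a6.

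Slc22a23 followed with 501 and 512 CPM against 57.3 and 93.5 CPM, Slc2a1 with 220 and 79.9 against 28.6 and 25.5 CPM, and Slc16a12 with 155 and 246 CPM against 0 and 23.4 CPM. The 95 UMIs of Slc2a1 in cluster 24 of library 1 include those of the 1 nucleus described above for fibroblasts. Slc2a12, Slc22a2 and Slc30a10 were also higher in cluster 24. Endothelial markers summed to 1657 and 1647 CPM in cluster 24 and 447 and 631 CPM in cluster 27, beside 14684 and 16849 CPM in endothelial nuclei. Pericyte markers summed to 531 and 1020 CPM in cluster 24 and 57.3 and 117 CPM in cluster 27, beside 5179 and 5161 CPM in pericytes with smooth muscle. Smooth muscle markers summed to 589.5 and 383 CPM in cluster 24 and 10.7 and 27.6 CPM in cluster 27. Astrocyte markers summed to 2465 and 4161 CPM in cluster 24 and 1493 and 2286 CPM in cluster 27, beside 13744 and 14691 CPM in astrocytes. The part of any of these markers in the carrier differences was not tested.

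Slc5a6, Slc16a9 and Slc22a15 were higher in cluster 27. Slc5a6 held 114.5 and 91.3 CPM there and 11.6 and 4.10 CPM in cluster 24, and Slc16a9 held 96.6 and 272 CPM against 20.9 and 10.2 CPM. Slc16a1 was also higher in cluster 27 in library 2 (189 CPM, 152 to 233, against 34.8 CPM), and in library 1 (64.4 CPM against 20.9 CPM) the intervals overlapped.

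**Figure D4:**
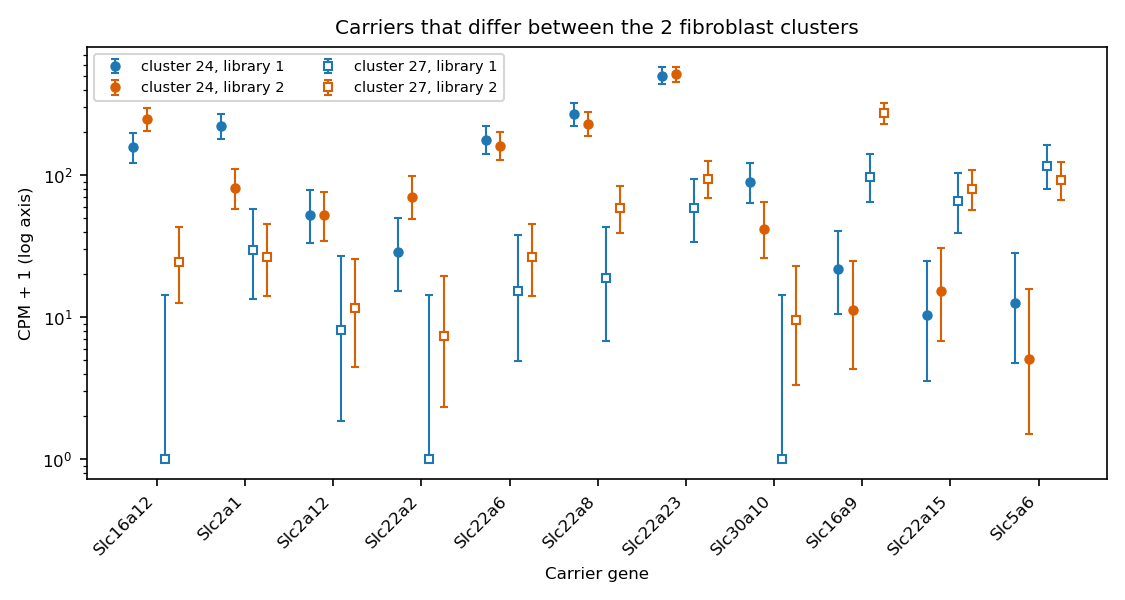
Level of 11 carriers in fibroblast cluster 24 and cluster 27, as CPM + 1 on a log axis with exact 95% Poisson intervals, for each library. The 8 carriers from Slc16a12 to Slc30a10 lie higher in cluster 24, and Slc16a9, Slc22a15 and Slc5a6 lie higher in cluster 27.

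Endothelial nuclei fell into a large cluster 19 (138 and 232 nuclei, led by Slco1a4, Nostrin and Adgrl4) and a small cluster 29 (18 and 63 nuclei, led by Eln, Bmx and Fbln5). Of the 72 carriers, 4 were at least 2-fold higher in cluster 19 with intervals apart in both libraries (0.602% of genes) and 0 in cluster 29 (0.348%). Slc39a10 held 734 CPM (661 to 812) and 1019 CPM (953 to 1088) in cluster 19 against 171 and 139 CPM in cluster 29. Slc16a1 held 144 and 187 CPM against 0 and 9.93 CPM, Slc22a8 held 156 and 313 CPM against 1 UMI (library 1) and 24.8 CPM, and Slc30a1 held 209 and 109.95 CPM against 1 UMI (library 1) and 29.8 CPM. Slc2a1 held 1615 and 1170 CPM in cluster 19 against 475 CPM (307 to 701) and 943 CPM (814 to 1087) in cluster 29, so that it was high in both. Bsg held 2568 and 1454 CPM in cluster 19 and 285 and 313 CPM in cluster 29. Pericyte markers summed to 2790 and 2621 CPM in cluster 19 and to 76.0 and 208 CPM in cluster 29. Endothelial markers summed to 15311 and 17323 CPM in cluster 19 and to 8643 and 14771 CPM in cluster 29. The list of 10 neuronal genes summed to 15451 and 15178 CPM in cluster 19 and to 24676 and 16300 CPM in cluster 29. The part of any of these in the differences between the clusters was not tested.

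Set side by side, the 2 libraries differed in the same direction in most units for a few carriers. The rule of 23 of 25 units was chosen after the data were seen. By it, Slc16a4 was the 1 carrier of 72 higher in library 2, against 3.69% of all genes, and 7 were higher in library 1, against 10.3% of all genes, so neither share stood above the background. Slc16a4 held 4.25 and 19.4 CPM over whole libraries (247 and 1177 UMIs) and was higher in library 2 in 25 of 25 units, with intervals apart in 18. In neuron clusters it lay between 1.28 and 7.18 CPM in library 1 and between 11.5 and 24.5 CPM in library 2. Summed endothelial markers in neuron clusters were also higher in library 2, at 62.4 to 350.5 CPM against 21.7 to 150.3 CPM, and their part in the Slc16a4 difference was not tested.

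Slc22a17 was higher in library 1 in 24 of 25 units, at 206 against 114 CPM over whole libraries and with intervals apart in 20 units. Slc16a11 (15.3 against 6.54 CPM), Slc39a2 (13.4 against 4.33 CPM), Slc2a3 and Slc22a14 were higher in library 1 in 24 units, and Slc39a13 and Slc5a6 in 23. Slc2a13, by contrast, was at 548 and 533 CPM.

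**Figure D5:**
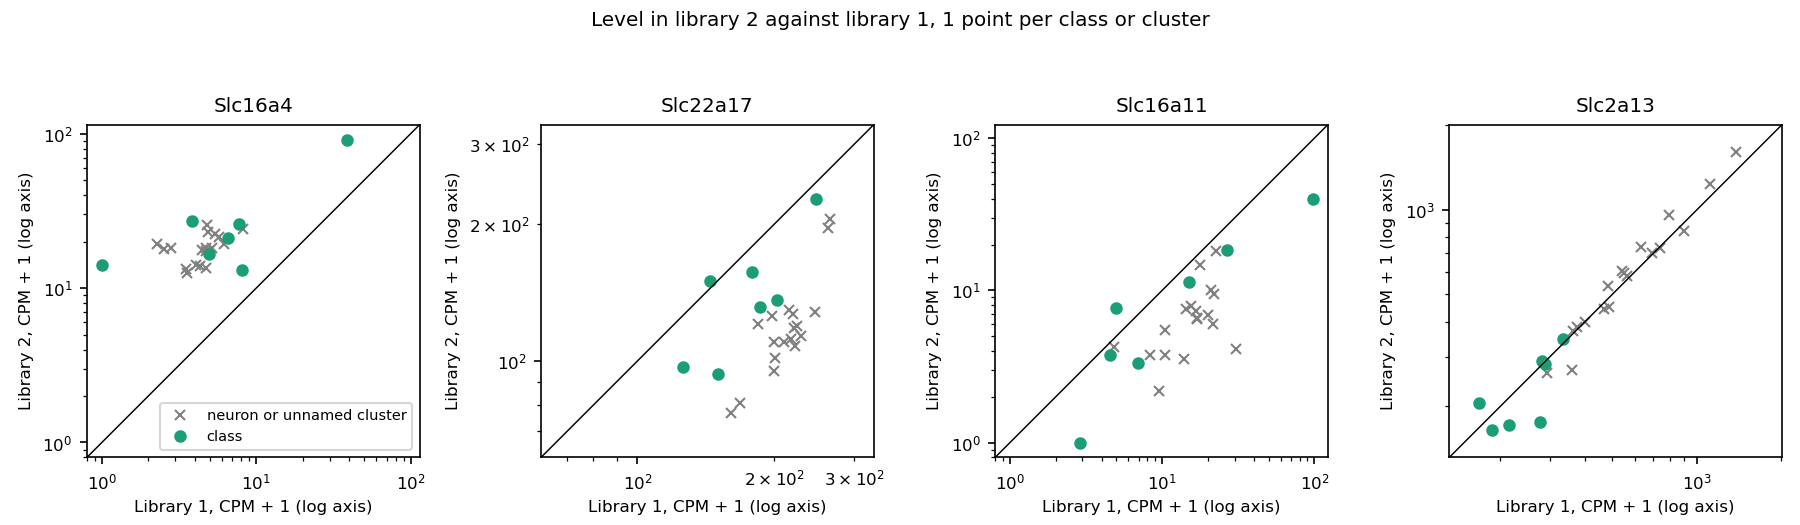
Level of Slc16a4, Slc22a17, Slc16a11 and Slc2a13 in library 1 against library 2, as CPM + 1 on log axes, with 1 point for each compared unit and a line of equality. For Slc16a4 all 25 points lie on the library 2 side, for Slc22a17 and Slc16a11 24 lie on the library 1 side, and Slc2a13 has points on both sides (10 and 15).

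Within endothelial nuclei, 2 carriers were at least 1.5-fold higher in library 1 with intervals apart (Slc16a9 and Slc30a1, background 2.64%) and 3 in library 2 (Slc16a4, Slc16a12 and Slc22a8, background 1.95%). Slc16a12 held 14.3 and 55.4 CPM in them. In fibroblasts 4 were higher in library 1 (Slc2a1, Slc16a11, Slc22a17 and Slc30a10, background 1.95%) and 3 in library 2 (Slc16a1, Slc16a4 and Slc16a9, background 1.65%). In astrocytes 1 was higher in library 1 (Slc39a13, 2.45%) and 2 in library 2 (Slc16a4 and Slc30a10, 2.1%). In oligodendrocytes 2 were higher in library 1 (Slc39a3 and Slc39a14, 4.13%) and 3 in library 2 (Slc16a4, Slc22a8 and Slc22a23, 2.79%). In their precursors 2 were higher in library 1 (Slc2a3 and Slc39a9, 1.56%) and 0 in library 2 (1.96%). In pericytes with smooth muscle 0 were higher in library 1 (0.465%) and 1 in library 2 (Slc39a10, 76.6 and 187 CPM, 0.433%). In microglia 0 differed either way (1.11% and 1.37%).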

How the data were processed

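The values deposited are unnormalized UMI counts, 1 per gene and nucleus barcode. Build mm10, Seurat 3.1, R 4.0.2 and Cell Ranger 2.0.1 were used per the submitters' processing notes, whereas the matrix header names software version 3.1.0, a conflict that was not settled. Which annotation was used, and how intronic reads were treated, is not given in the sources used here. Gene positions are from GENCODE vM21.

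Nuclei needed at least 200 genes and no more than 5% mitochondrial UMIs (329 and 313 barcodes had more). Scrublet's automatic threshold marked 0 and 2 barcodes and so had not worked; a score limit of 0.2, set after the scores were seen, left out 305 and 332. Clustering used Python 3.11.15, scanpy 1.11.5 with 2000 variable genes, 30 components, 15 neighbours and Leiden resolution 1. All carriers, and partner genes except class markers, were kept out of the variable genes. Naming thresholds and class merges were set after the clusters were seen. Exact Poisson intervals used scipy 1.17.1; edgeR 4.0.16 gave TMM factors for 1 alternative and no test. No per-sample columns were left unused (0).

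Members and lists were chosen with earlier results of these data known. Named in full were, per family, the 4 carriers with the highest CPM in any compared unit, and those 2-fold over the next unit in both libraries at 20 CPM or more; others are given in ranges, and from each partner list the 3 highest genes. Other genes were named after their values were seen. Some genes that this rule names are not reported here, although counts include them. Calculations were tested on simulated counts. Alternatives changed 1 choice at a time.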

Additional observations from a re-analysis of the deposited data

How the results depend on the processing

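No paired analysis was possible because the libraries carry no replicate numbers and no test was run, and there were no replicates to leave out. Of 277 counts and class results under alternatives, 250 stayed and 27 moved; of 526 values of single carriers, 431 stayed and 95 moved. With each nucleus weighted equally, carriers 2-fold over the next unit numbered 1 in pericytes with smooth muscle (0 as reported) and 0 in oligodendrocytes (1), and with TMM scaling 0 in oligodendrocytes. Thinned to 1500 UMIs, they numbered 1 in pericytes with smooth muscle, 2 in fibroblasts (4) and 0 in oligodendrocytes, and precursors were highest for 1 (2) and 4-fold over the mean for 0 (1). With at least 100 UMIs oligodendrocytes had 0 by all 3 rules, and with at least 1 UMI neurons had 2 at 4-fold (1). With doublets kept, pericytes with smooth muscle were highest for 4 (2) and 2-fold for 1, and precursors had 0 for highest and 4-fold. A doublet limit of 0.15 left oligodendrocytes 0 at 2-fold, and resolution 2 left precursors highest for 1. A mitochondrial limit of 1% gave endothelial counts of 15, 9 and 11 (7, 5 and 6), oligodendrocytes 0 at 2-fold, precursors highest for 1, neurons 1 at 2-fold (0) and 3 at 4-fold, and the same class of highest level for 36 and 26 of 72 carriers; under the other alternatives 54 to 70 kept it. At that limit no fibroblast, mural or microglial class remained, the endothelial cluster also carried fibroblast markers, and Slc2a1 stood at 282 CPM in library 1. The causes were not tested. Over 1.5-fold moves after thinning were Slc30a1 in endothelial nuclei (191 to 116 CPM), Slc2a12 in fibroblasts (33.8 to 16.9) and Slc39a8 in endothelial nuclei (35.7 to 23.1), all library 1, and Slc39a11 in cluster 26, library 2 (83.2 to 51.3). The alternative of naming low-UMI clusters was not run, since that limit left no cluster unnamed.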

Other observations

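Choroid plexus-like nuclei (23 in library 1 and 13 in library 2) and ependymal-like nuclei (15 and 29) were too few to compare, and are given as values. Choroid plexus-like nuclei held Slc2a12 at 188 and 272 CPM, Slc39a12 at 278 and 517 CPM and Slc22a17 at 583 and 286 CPM. Slc16a8, the lactate carrier MCT3, was at 135 CPM (15 UMIs) and 54.5 CPM (4 UMIs), where no compared unit passed 1.15 CPM. Slc16a8 had 26 UMIs in the matrix and so was measured only because of its choroid plexus-like UMIs. Slc16a9 was at 71.8 and 149.8 CPM. Ependymal-like nuclei held Slc39a12 at 208 and 214 CPM and Slc2a13 at 503 and 137 CPM.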
